A study of Homo sapiens with 18 samples.

Results

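A549, a human lung adenocarcinoma line often used as a model of the alveolar epithelium, was grown in DMEM/F-12 and either left untreated or exposed for 24 h to black phosphorus quantum dots (BPQD) at 10 mg/L or to titanium dioxide (TiO2) at 100 mg/L. The series asks how these materials change RNA methylation, and it also sequenced input RNA, that is, RNA not enriched for the methyl mark. Described here is the direct comparison of the 3 BPQD input libraries with the 3 TiO2 input libraries over the 12224 genes, of 36576 in the expression table, whose mean over all 9 input libraries was at least 1 FPKM (fragments per kilobase of transcript, scaled to the mapped fragments of the library). The 3 untreated input libraries give the level without exposure. The mass doses of the materials differ, so a difference between them is a difference between these exposures and cannot be told apart from a difference of dose. The labels do not say whether replicates were separate cultures, and the p-values therefore measure only the spread between these libraries.

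Particles that reach a cell are taken up largely by endocytosis and delivered to lysosomes, acidic compartments that the V-type proton pump keeps at low pH and whose genes are controlled in part by the factor TFEB. Cholesterol leaving the lysosome is sensed in the endoplasmic reticulum, where SREBP2, the product of SREBF2, is held back by INSIG1 when sterol is plentiful and released to switch on the sterol synthesis genes when it is scarce. Metal and redox stress are known to act on other gene sets, among them metallothioneins (metal binding), NRF2 targets such as HMOX1 (heme breakdown), and ATF4 targets (amino acid supply).

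Libraries of the same exposure correlated at r = 0.981 to 0.983 for BPQD and 0.980 to 0.982 for TiO2 over the log2 values of the tested genes, and libraries of different exposures at 0.967 to 0.971. BPQD replicate 1 listed 7683 genes of the whole table at 0, fewer than the 8895 to 10445 of the other 8 libraries. Without it 3979 genes were called between the materials, 2010 higher under BPQD and 1969 higher under TiO2, against 4596, 2323 and 2273 with it. The epithelial keratins KRT18, KRT7 and KRT8 were abundant, with KRT18 between 403 and 582 FPKM in the 9 libraries. Of 16 epithelial markers in the table, 6 were under 1 FPKM in all 9 libraries. Among these, the keratin KRT19 ran from 0.0197 to 0.624 FPKM and the E-cadherin gene CDH1 stayed at 0.242 to 0.409. The lung-lineage genes NKX2-1 and SFTPC were at or near 0. Of 8 leukocyte markers, 7 were under 1 FPKM in all 9 libraries, and PTPRC (CD45) did not exceed 0.0346 FPKM. The exception was CD68, a lysosomal membrane protein that macrophages carry in quantity but other cells express too, at 12.4, 11.5 and 11.98 FPKM under BPQD and 20.1, 22.9 and 17.3 under TiO2, a log2 difference (BPQD minus TiO2, with the standard error of the fit) of -0.70 ± 0.098 (limma adjusted p = 0.00113). Of 6 endothelial markers 5 were under 1 FPKM, and CDH5 (VE-cadherin) stood at 1.14, 1.15 and 1.28 FPKM under BPQD, 2.48, 2.04 and 3.73 under TiO2 and 3.08, 3.35 and 2.94 in controls. The summed level of the 16 epithelial markers in the table was 882 to 901 FPKM under BPQD, 977 to 1075 under TiO2 and 1196 to 1281 in controls, and that of 15 mesenchymal markers was 191 to 199, 206 to 222 and 192 to 206. The epithelial sum came mostly from the keratins KRT18, KRT7 and KRT8, and single members did not all follow it. EPCAM was at 2.55, 2.39 and 3.09 FPKM under BPQD, 2.52, 2.65 and 2.95 under TiO2 and 2.31, 2.24 and 2.02 in controls. In bulk RNA fewer cells of a kind and less RNA per cell cannot be told apart.

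The materials left many genes at different levels, most of them by a small amount. At a limma adjusted p under 0.05, 4596 of 12224 genes (37.6%) differed, 2323 (19.0%) higher under BPQD and 2273 (18.6%) higher under TiO2. The FPKM of the BPQD and TiO2 libraries did not overlap in 6250 genes (51.1%), of which 4560 were called. All differences below are BPQD minus TiO2 on the log2(FPKM + 1) scale, which understates the change of low genes, and are followed by their standard error where 2 numbers are given. Over all tested genes the median difference was 0.003, and the median size among called genes was 0.26. Only 89 called genes differed by 1 or more, 52 of them higher under BPQD and 37 higher under TiO2. The split between directions depended on the scaling: with FPKM rescaled so that every library has the same sum (TPM), 2821 genes were called higher under BPQD and 1842 higher under TiO2.

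**Figure D1:**
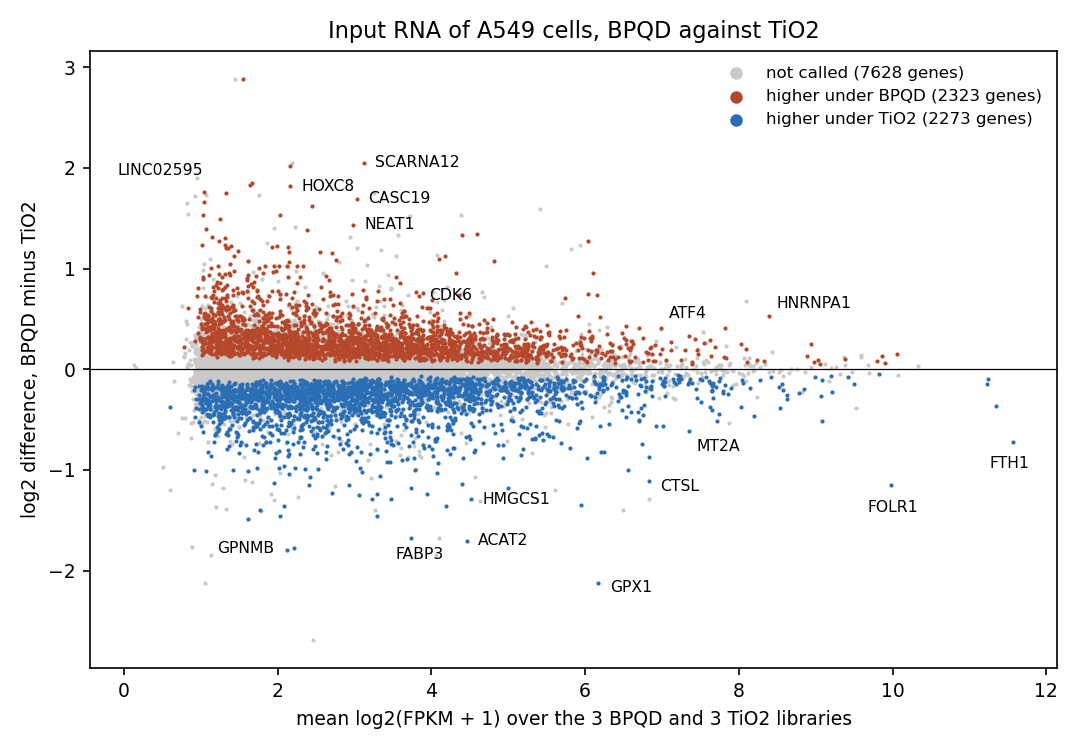
Each point is 1 of 12224 genes, with the mean log2(FPKM + 1) of the 6 exposed libraries on the x axis and the log2 difference BPQD minus TiO2 on the y axis, coloured where the limma adjusted p was under 0.05. Called genes lie on both sides of 0 at all levels. Genes labelled below 0 include sterol and lysosomal genes, GPX1, FABP3, FOLR1, FTH1 and MT2A. Those labelled above it are noncoding RNAs and the coding genes HOXC8, HNRNPA1, ATF4 and CDK6.

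The gene lists describe where these differences lay. Among lists with at least 5 tested genes, those with the largest shares called higher under TiO2 were the late sterol pathway (10 of 11), the mevalonate arm (7 of 9), phosphate handling (8 of 11), V-ATPase subunits (11 of 17) and hypoxia targets (14 of 22). Those with the largest shares higher under BPQD were readers of m6A, the N6-methyladenosine mark of RNA (10 of 15), mRNAs of the mitochondrial genome (6 of 13), RNA polymerase III transcripts (3 of 7), mitotic genes (16 of 40) and DNA repair genes (15 of 38). Each count stands beside 19.0% of all tested genes called higher under BPQD and 18.6% called higher under TiO2. The polymerase III list had a median difference of -0.04. Its 3 members higher under BPQD were BCYRN1, RN7SL1 and RN7SL2. The call of BCYRN1 was lost when some single libraries were left out, and near-identical copies can share reads of RN7SL1 and RN7SL2.

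**Figure D2:**
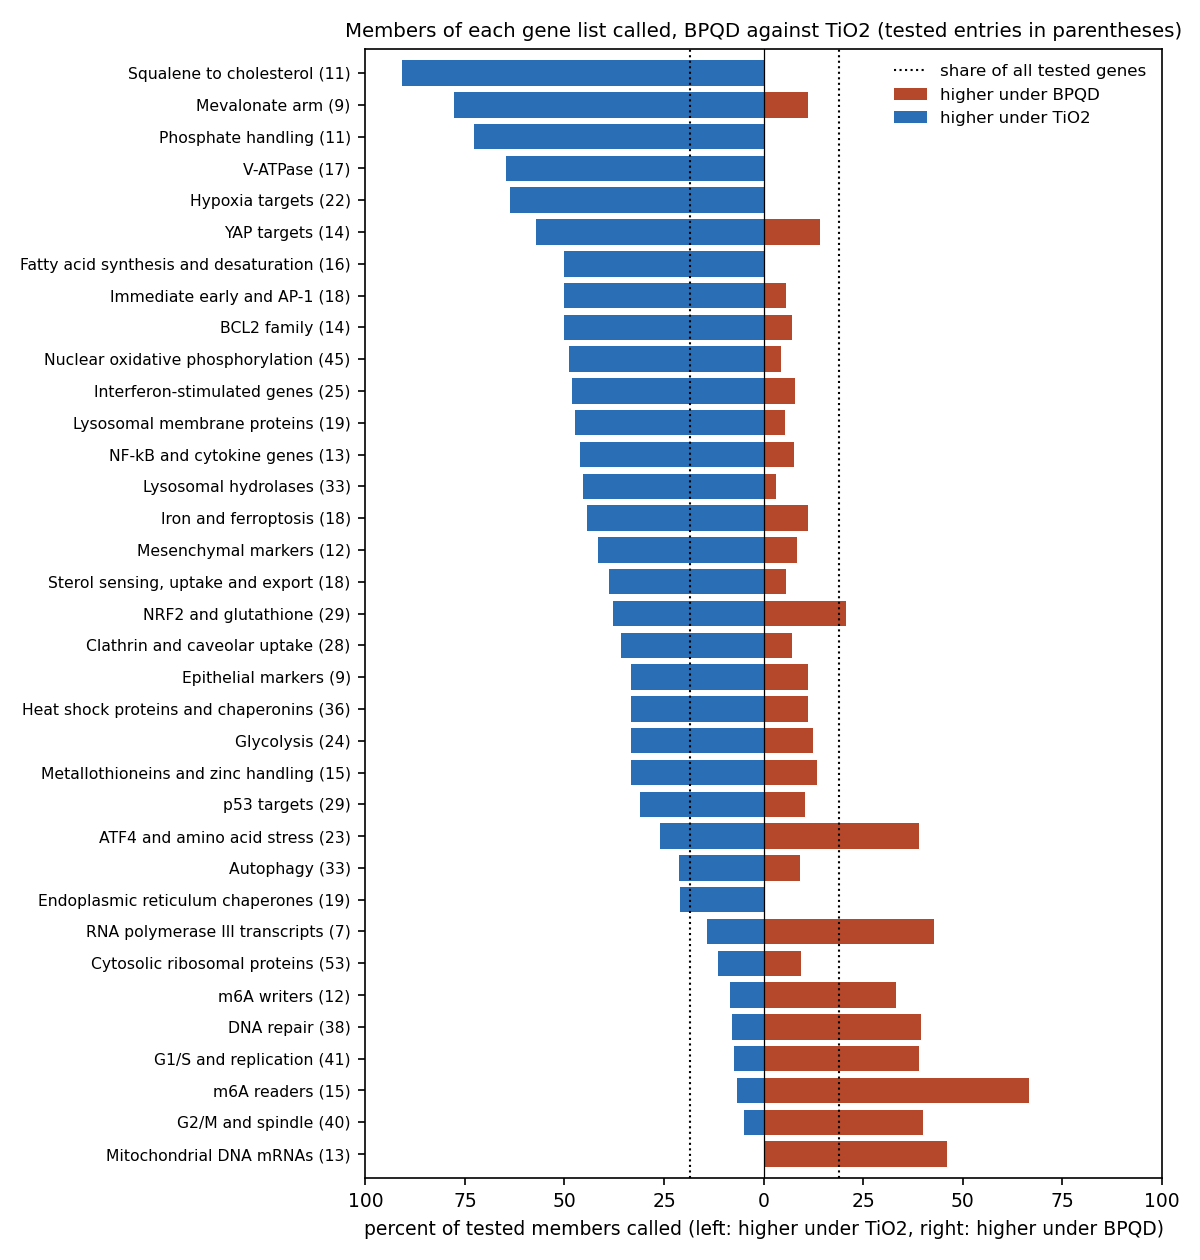
Bars give the percent of the tested members of each list called higher under TiO2 (left) or higher under BPQD (right), and dotted lines mark the same shares over all tested genes, 18.6% and 19.0%. Sterol, phosphate, V-ATPase and hypoxia lists extend far to the left, and m6A reader, mitochondrial mRNA, mitotic and repair lists to the right.

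The sterol synthesis lists had the largest shares of members called. In the mevalonate arm, which builds isoprenoid units from acetyl-CoA, 7 of 9 genes were higher under TiO2 and 1 higher under BPQD, with a median difference of -0.68 against 0.003 over all tested genes. ACAT2, which joins the first acetyl-CoA units, was at 11.2, 11.0 and 11.5 FPKM under BPQD and 38.8, 38.7 and 38.6 under TiO2 (-1.70 ± 0.030, adjusted p = 1.06e-07). It overlaps TCP1 and SOD2 on the opposite strand, and whether the authors counted by strand is not given in the sources used here. Reads of such pairs cannot be told apart. Other genes described here share this limit, among them FDFT1, IDI1, LSS, ACSS2, NPC2, SQSTM1, FOLR1, PSCA, FTH1 and CASC19. So do STARD4, SREBF2, WIPI1, RAB7A, CAV1, IER3, IL6, CDKN1A and KRT18, and these are not all. HMGCS1, the HMG-CoA synthase of the pathway, was at 13.98, 12.4 and 14.5 FPKM under BPQD and 35.3, 33.1 and 36.1 under TiO2 (-1.29 ± 0.057, adjusted p = 5.30e-06), with controls at 13.6, 13.1 and 13.1. HMGCS1 under BPQD thus lay around the untreated values and under TiO2 far above them, with no overlap of the exposures. IDI1 (-1.02) and MVD (-0.86), which make and isomerise the isoprenoid unit, were also higher under TiO2. All BPQD values of ACAT2 and MVD lay below their controls. The exception was PMVK (phosphomevalonate kinase), higher under BPQD by 0.20, with all 3 BPQD values above the 3 TiO2 values.

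From squalene to cholesterol, 10 of 11 tested genes were higher under TiO2 and none higher under BPQD, with a median difference of -0.83. The sterol methyl oxidase MSMO1 stood at 4.93, 5.24 and 4.92 FPKM under BPQD, 13.8, 14.4 and 13.0 under TiO2 and 4.88, 4.85 and 5.31 in controls (-1.28 ± 0.047, adjusted p = 2.58e-06). FDFT1, which forms squalene, was at 11.6, 13.96 and 14.3 FPKM under BPQD and 33.1, 24.8 and 33.7 under TiO2 (-1.14 ± 0.15). SQLE, the squalene epoxidase and a control point of the pathway, was at 7.02, 6.37 and 6.97 FPKM under BPQD and 13.6, 14.1 and 13.6 under TiO2 (-0.92 ± 0.042), and the cyclase LSS at 3.71, 3.44 and 3.51 and 6.97, 7.62 and 7.84 (-0.90 ± 0.046). The exposures did not overlap in any of these 4 genes.

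Among 18 genes of sterol sensing, uptake and export, 7 were higher under TiO2 and 1 higher under BPQD, with a median of -0.19. INSIG1, which retains SREBP in the endoplasmic reticulum and is itself an SREBP target, was at 3.60, 3.09 and 3.16 FPKM under BPQD and 8.67, 9.02 and 9.41 under TiO2 (-1.23 ± 0.051, adjusted p = 4.45e-06). INSIG1 was higher in every TiO2 library than in any BPQD library. The lysosomal exporter NPC2 (-0.80) and the sterol carrier STARD4 (-0.82) followed. SREBF2 itself was at 15.7, 15.9 and 16.2 FPKM under BPQD, 21.7, 21.95 and 21.7 under TiO2 and 21.0, 21.3 and 21.3 in controls (-0.43 ± 0.021), so the TiO2 values were near control and the BPQD values below it. Fatty acid genes, a related SREBP-controlled set, had 8 of 16 members higher under TiO2 and none higher under BPQD, with a median of -0.20. The acetate-activating ACSS2 (-1.15), the desaturases SCD (-0.82) and FADS1 (-0.44), and the acyl-CoA synthetase ACSL4 (-0.56) moved most, while SCD reached 97.1, 98.1 and 96.9 FPKM under TiO2 against 55.1, 54.7 and 54.3 under BPQD.

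SREBF2 and INSIG1 are shown with the start-site windows of RefSeq (GRCh38.p14, 250 bases before to 50 after the annotated start), because they are the pathway's activator and its brake and each carries 1 match to a searched motif. The SREBF2 window, chr22:41832855-41833154 on the plus strand, holds the sterol element TCACNCCAC, searched on both strands, in capitals:
SREBF2: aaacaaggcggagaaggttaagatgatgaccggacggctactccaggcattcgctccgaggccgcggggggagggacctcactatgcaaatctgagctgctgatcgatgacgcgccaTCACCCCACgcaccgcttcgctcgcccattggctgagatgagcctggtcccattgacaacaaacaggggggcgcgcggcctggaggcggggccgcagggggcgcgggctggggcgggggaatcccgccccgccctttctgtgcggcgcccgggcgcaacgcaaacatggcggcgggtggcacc
The INSIG1 window, chr7:155297628-155297927 on the plus strand, holds TCACGTGA, the core of the element that TFEB reads in lysosomal genes, in capitals:
INSIG1: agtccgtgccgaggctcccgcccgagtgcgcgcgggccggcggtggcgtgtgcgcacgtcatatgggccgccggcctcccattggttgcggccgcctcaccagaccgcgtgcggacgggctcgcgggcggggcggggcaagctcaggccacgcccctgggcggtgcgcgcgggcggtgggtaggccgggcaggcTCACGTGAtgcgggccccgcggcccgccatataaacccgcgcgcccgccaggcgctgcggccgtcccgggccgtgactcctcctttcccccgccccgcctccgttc
The sterol element as spelled occurred in 1.15% of 27305 windows and 1.13% of those of tested genes, in 0 of 7 mevalonate and 0 of 8 late-pathway windows, and in 1 of 15 sensing and uptake windows, that of SREBF2. The TCACGTGA core occurred in 1.04% of all windows. A match of letters is a description and does not show binding.

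Lysosomal lists had many members called higher under TiO2 and few higher under BPQD. Of 33 hydrolases, 15 were higher under TiO2 and 1, the cathepsin CTSH, higher under BPQD, with a median of -0.21. The abundant cathepsin CTSL was at 75.3, 76.4 and 77.0 FPKM under BPQD, 164, 167 and 167 under TiO2 and 80.3, 80.1 and 80.7 in controls (-1.11 ± 0.017, adjusted p = 5.04e-08). The sialidase NEU1 was at 2.48, 2.77 and 2.44 FPKM under BPQD and 7.24, 6.61 and 6.90 under TiO2 (-1.15 ± 0.047, adjusted p = 4.03e-06). The acid lipase LIPA, which frees cholesterol from LDL esters, was at 12.6, 11.9 and 12.6 and 19.5, 21.0 and 20.6 (-0.68 ± 0.042). LIPA overlaps interferon-induced IFIT genes on the opposite strand and is uncertain for that reason.

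Of 19 lysosomal membrane genes, 9 were higher under TiO2 and 1 higher under BPQD. GPNMB, a glycoprotein of melanosomes and lysosomes, showed one of the sharpest separations, at 1.46, 1.64 and 1.44 FPKM under BPQD, 7.61, 7.41 and 7.86 under TiO2 and 1.51, 1.23 and 1.31 in controls (-1.78 ± 0.055, adjusted p = 1.78e-06). The sialic acid exporter SLC17A5 differed by -0.68, and the tetraspanin CD63 by -0.57, a call that was lost when any of several libraries was left out. The proton pump had 11 of 17 subunits higher under TiO2, none higher under BPQD and a median of -0.28. ATP6V0E1 was at 59.6, 54.1 and 54.8 FPKM under BPQD and 100.8, 99.3 and 100.7 under TiO2 (-0.83 ± 0.035), and ATP6V1F at 85.8, 85.9 and 86.9 and 125, 122 and 124 (-0.52 ± 0.016). TFEB itself did not pass, at 2.05, 2.00 and 1.98 FPKM under BPQD and 1.62, 1.71 and 1.94 under TiO2 (0.13 ± 0.063, adjusted p = 0.150).

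Of 33 autophagy genes, 7 were higher under TiO2, close to the background share, and 3 higher under BPQD, a count that was 7 with TPM. The cargo receptor SQSTM1 (p62) was at 58.6, 59.6 and 58.7 FPKM under BPQD, 88.7, 87.6 and 86.7 under TiO2 and 57.7, 58.0 and 58.0 in controls (-0.56 ± 0.017, adjusted p = 1.78e-06), so BPQD lay next to control. The phosphoinositide-binding WIPI1 (-0.88), the cargo receptor OPTN (-0.47) and the initiation factor ATG101 (-0.37) were also higher under TiO2. The TCACGTGA core was found in 3 of 20 hydrolase windows, 3 of 17 lysosomal membrane windows and 2 of 12 V-ATPase windows, against 2.09% of the windows of tested genes. The pump subunit ATP6V0D1 (-0.35, adjusted p = 0.00233) is printed as the named example, from chr16:67481108-67481407 on the minus strand, with the core in capitals:
ATP6V0D1: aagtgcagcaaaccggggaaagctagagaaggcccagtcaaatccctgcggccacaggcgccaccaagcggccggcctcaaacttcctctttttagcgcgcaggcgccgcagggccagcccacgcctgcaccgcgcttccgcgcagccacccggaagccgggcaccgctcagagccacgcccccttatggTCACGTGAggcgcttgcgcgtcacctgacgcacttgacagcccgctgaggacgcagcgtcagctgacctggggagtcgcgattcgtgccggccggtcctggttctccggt

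**Figure D3:**
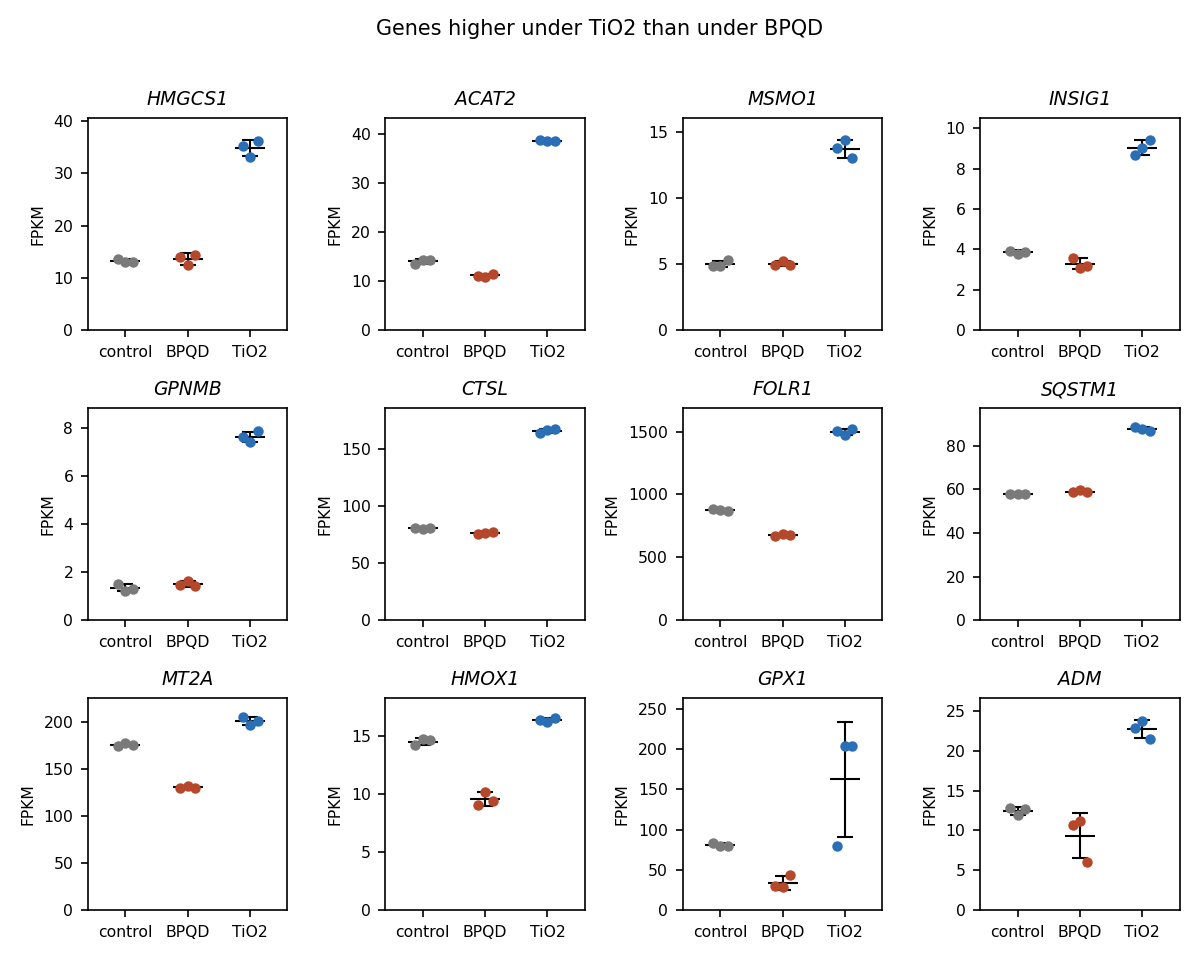
FPKM per library (points, 3 per group) with mean and SD (bars) for 12 genes called higher under TiO2 than under BPQD. HMGCS1, MSMO1, GPNMB and SQSTM1 lie near control under BPQD and above it under TiO2, while MT2A, HMOX1 and FOLR1 lie on opposite sides of control.

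Uptake genes had 10 of 28 members higher under TiO2 and 2 higher under BPQD, with a median of -0.14. Without TiO2 replicate 1 the count higher under TiO2 was 6. The late endosome GTPase RAB7A was at 65.2, 65.9 and 66.1 FPKM under BPQD and 140.2, 135 and 124 under TiO2 (-1.004 ± 0.18), with controls spread at 99.6, 107 and 63.0. The caveolar genes CAV1 (-0.78, adjusted p = 0.0400) and CAVIN3 (-0.63) were lower under BPQD as well. The call of CAV1 was lost when any BPQD or TiO2 library was left out. The next genes belong to no list here and were named by the size of their difference. The folate receptor FOLR1 was at 666, 682 and 675 FPKM under BPQD, 1504, 1474 and 1518 under TiO2 and 883, 874 and 869 in controls (-1.15 ± 0.016, adjusted p = 5.04e-08). The fatty acid carrier FABP3 was at 6.63, 6.14 and 6.55 and 22.3, 23.3 and 22.6 FPKM (-1.67 ± 0.053), and the surface antigen PSCA at 37.1, 37.1 and 38.5 and 99.3, 96.5 and 96.2 (-1.35 ± 0.026). SERINC2 (-1.36), a serine incorporator family membrane protein, the prostaglandin E synthase PTGES (-0.87) and the cytidine deaminase CDA (-0.74) were lower under BPQD than control and higher under TiO2 than control, with all 3 groups separate. IGFL1P1 (-1.46) and IGFL2-AS1 (-1.36) overlap each other on opposite strands, so their reads cannot be told apart here.

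Hypoxia-inducible genes, targets of the oxygen-sensing factor HIF1, had 14 of 22 members higher under TiO2 and none higher under BPQD, with a median of -0.33. ANGPTL4, a lipase inhibitor, was at 1.03, 1.02 and 1.28 FPKM under BPQD, 4.90, 4.26 and 4.53 under TiO2 and 2.77, 2.36 and 3.25 in controls (-1.40 ± 0.093, adjusted p = 3.33e-05). The vasodilator peptide gene ADM was at 10.7, 11.2 and 6.07 and 22.9, 23.7 and 21.5 FPKM (-1.24 ± 0.19), and NDRG1 (-0.83) and the repressor BHLHE40 (-0.75) differed in the same sense. Glycolytic genes were mixed, with 8 of 24 higher under TiO2 and 3 higher under BPQD. The glucose transporters SLC2A1 (20.3, 20.0 and 19.8 FPKM under BPQD, 30.9, 29.3 and 31.0 under TiO2, -0.58 ± 0.033) and SLC2A3 (-0.54), the hexokinase HK1 (-0.53) and the aldolase ALDOC (-0.76) were higher under TiO2.

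MT2A, the main metallothionein of these cells, was at 130.4, 132 and 130.1 FPKM under BPQD, 206, 198 and 201 under TiO2 and 175, 178 and 176 in controls (-0.62 ± 0.019, adjusted p = 1.78e-06), and MT1X at 11.98, 12.1 and 11.96 and 19.8, 21.1 and 20.1 (-0.71 ± 0.031). Control values lay between the exposures for both. The zinc transporters SLC39A8 (-0.32) and SLC30A6 (-0.44, a call lost in some leave-one-out fits) were also higher under TiO2, and the list as a whole had 5 of 15 members higher under TiO2 and 2 higher under BPQD. The MT2A window, chr16:56608334-56608633 on the plus strand, is printed with its match to the antioxidant element core TGACNNNGC in capitals, which 7 of 13 windows of this list hold against 15.6% of the windows of tested genes:
MT2A: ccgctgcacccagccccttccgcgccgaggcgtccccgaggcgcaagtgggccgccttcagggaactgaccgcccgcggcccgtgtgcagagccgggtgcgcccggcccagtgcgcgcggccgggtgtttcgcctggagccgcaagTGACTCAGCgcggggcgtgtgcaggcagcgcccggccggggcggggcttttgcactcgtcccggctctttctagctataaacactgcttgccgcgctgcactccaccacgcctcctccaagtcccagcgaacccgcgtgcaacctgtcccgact

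NRF2 and glutathione genes went both ways, with 11 of 29 higher under TiO2 and 6 higher under BPQD. HMOX1 was at 9.09, 10.2 and 9.38 FPKM under BPQD, 16.4, 16.2 and 16.6 under TiO2 and 14.2, 14.7 and 14.6 in controls (-0.72 ± 0.040, adjusted p = 1.54e-05). SLC7A11, the cystine importer that feeds glutathione synthesis, was instead higher under BPQD, at 10.8, 11.1 and 10.7 FPKM against 8.29, 8.59 and 8.16 under TiO2 and 6.60, 6.15 and 6.59 in controls (0.35 ± 0.034, adjusted p = 0.000222). These NRF2 targets thus differed in opposite directions between the same libraries. The steroid reductase AKR1C3 (-0.63) was higher under TiO2 and UGDH (0.39, a call lost in some leave-one-out fits) higher under BPQD. Iron genes had 8 of 18 members higher under TiO2 and 2 higher under BPQD, with a median of -0.20. The ferritin heavy chain FTH1 was at 2361, 2369 and 2346 FPKM under BPQD and 3867, 3857 and 3925 under TiO2 (-0.72 ± 0.21, adjusted p = 0.0284), the most abundant gene named. Its controls ranged from 1538 to 2972 FPKM, and its call was lost when any BPQD or TiO2 library was left out, where the difference stayed between -0.71 and -0.72. With quantile normalization the difference itself was -0.054 (adjusted p = 0.874). The glutathione peroxidases also differed. GPX4, which protects membranes from lipid peroxides, was at 48.1, 46.5 and 48.6 FPKM under BPQD, 72.5, 68.8 and 74.4 under TiO2 and 77.5, 79.4 and 80.9 in controls (-0.58 ± 0.034). GPX1 had the largest difference of any named gene, at 29.995, 28.6 and 44.0 FPKM under BPQD and 80.0, 204 and 204 under TiO2 (-2.12 ± 0.35, adjusted p = 0.00253), but TiO2 replicate 1 lay at the control level of 83.9, 80.2 and 79.4.

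Black phosphorus oxidises to phosphate in water, and genes of phosphate handling form a list for that reason. Of 11 tested, 8 were higher under TiO2 and none higher under BPQD, with a median of -0.20. The placental alkaline phosphatase ALPP, abundant in these cells, was at 173, 175 and 177 FPKM under BPQD, 254, 245 and 252 under TiO2 and 334, 334 and 336 in controls (-0.51 ± 0.018, adjusted p = 2.32e-06). Both exposures were below control, BPQD further. Its near-identical neighbour ALPG (-0.50) can share reads with it and is uncertain. The phosphate exporter XPR1 was at 2.89, 3.05 and 2.96 FPKM under BPQD and 4.74, 5.23 and 5.14 under TiO2 (-0.61 ± 0.13), and the phosphatase LHPP differed by -0.33.

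Chaperone genes showed modest differences. Of 36 tested heat shock and chaperonin entries, 12 were higher under TiO2 and 4 higher under BPQD, with a median of -0.07. The constitutive HSPA8 was at 337, 347 and 289 FPKM under BPQD and 420.3, 423 and 422 under TiO2 (-0.38 ± 0.089, adjusted p = 0.0120), the small chaperone HSPB8 at 14.8, 15.9 and 14.8 and 21.1, 21.8 and 22.6 (-0.50 ± 0.037), and HSPH1 differed by -0.26. The inducible HSPA1A gave 199, 28.9 and 205 FPKM under BPQD and 229.5, 32.2 and 230.3 under TiO2 (-0.18 ± 0.95, adjusted p = 0.905). Its replicate 2 was low under both exposures, and the near-identical HSPA1B can take its reads, so its level is uncertain. Endoplasmic reticulum chaperones had 4 of 19 members higher under TiO2, led by MANF (-0.38), near the background share, and none higher under BPQD. HSPA5 (BiP), the main chaperone there, did not pass, at 273, 273 and 273 FPKM under BPQD and 281, 282 and 277 under TiO2 (-0.038 ± 0.015, adjusted p = 0.0776), and both lay above the controls at 199.98, 197 and 197. The HSPA8 window, chr11:123062087-123062386 on the minus strand, is printed as the abundant example with its 2 matches to the heat shock element GAANNTTC in capitals, an element held by 9 of 31 windows of this list and 4.56% of those of tested genes:
HSPA8: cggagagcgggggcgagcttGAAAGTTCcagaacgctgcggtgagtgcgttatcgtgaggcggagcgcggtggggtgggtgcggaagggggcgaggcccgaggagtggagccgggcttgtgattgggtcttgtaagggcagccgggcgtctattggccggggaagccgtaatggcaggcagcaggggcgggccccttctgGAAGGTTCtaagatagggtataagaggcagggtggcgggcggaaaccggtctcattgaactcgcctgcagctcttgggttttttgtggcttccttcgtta

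Immediate early and AP-1 genes had 9 of 18 members higher under TiO2 and 1 higher under BPQD, with a median of -0.41. The survival gene IER3 was at 19.2, 20.2 and 21.2 FPKM under BPQD and 46.4, 48.1 and 46.3 under TiO2 (-1.18 ± 0.044), and the kinase phosphatases DUSP5 (-1.06) and DUSP1 (-0.69) and the AP-1 subunit JUN (-0.59) differed likewise. Targets of YAP, the effector of the Hippo pathway, had 8 of 14 higher under TiO2 and 2 higher under BPQD, with a median of -0.33. The matricellular CCN3 was at 4.75, 4.27 and 4.16 FPKM under BPQD, 11.7, 11.95 and 11.9 under TiO2 and 3.99, 4.29 and 4.14 in controls (-1.25 ± 0.046, adjusted p = 2.53e-06). CCN1, another target, was at 36.0, 38.0 and 37.0 and 58.4, 59.5 and 60.8 FPKM (-0.67 ± 0.027), and tissue factor F3 differed by -0.90. For CCN1 and JUN the BPQD values lay close to those of controls.

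Interferon-stimulated genes had 12 of 25 members higher under TiO2 and 2 higher under BPQD, with a median of -0.22. IFIT3 was at 6.31, 6.15 and 5.18 FPKM under BPQD and 11.2, 11.2 and 11.6 under TiO2 (-0.85 ± 0.071), ISG15, a ubiquitin-like modifier, at 16.3, 17.1 and 17.1 and 29.7, 25.9 and 27.7 (-0.69 ± 0.062), and IFIT1 differed by -0.55, the IFIT genes overlapping LIPA on the opposite strand. Of 13 NF-kB and cytokine genes, 6 were higher under TiO2 and 1, RELA (0.36, a call lost in some leave-one-out fits), higher under BPQD. The cytokine IL6 was at 3.14, 2.76 and 2.50 FPKM under BPQD, 4.12, 3.67 and 3.77 under TiO2 and 1.079, 1.22 and 1.13 in controls (-0.36 ± 0.068, adjusted p = 0.00487), and both exposures were above control. LIF (-0.50) and the adhesion molecule ICAM1 (-0.32) were also higher under TiO2. Of 29 p53 targets, 9 were higher under TiO2 and 3 higher under BPQD. The cell cycle inhibitor CDKN1A (p21) was at 14.5, 14.2 and 14.3 FPKM under BPQD, 19.8, 20.8 and 20.2 under TiO2 and 24.4, 24.7 and 24.6 in controls (-0.47 ± 0.024, adjusted p = 1.15e-05). In the BCL2 family, regulators of cell death, 7 of 14 were higher under TiO2 and 1 higher under BPQD, among them the pro-survival MCL1 (50.5, 50.8 and 50.7 FPKM under BPQD, 61.2, 61.8 and 63.2 under TiO2, -0.29 ± 0.071) and the pro-death HRK (-0.39) and BAD (-0.32, a call lost in some leave-one-out fits).

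Of 434 long noncoding RNAs named as such by RefSeq, 147 (33.9%) were higher under BPQD and 35 (8.06%) higher under TiO2, with a median of 0.14. Of 10235 protein-coding genes, 1849 (18.1%) were higher under BPQD and 2143 (20.9%) higher under TiO2, a split that turned to 2296 and 1733 with TPM and to 2051 and 1944 with median centring, whereas that of long noncoding RNAs stayed at 164 and 29 or 161 and 32. Long noncoding RNAs were expressed at lower levels, with a median of 2.15 FPKM against 6.41 for protein-coding genes, and the part of this in their share was not tested. At a minimum mean of 5 FPKM, 30 of 80 long noncoding RNAs were higher under BPQD and 12 higher under TiO2. For 5982 protein-coding genes these counts were 1269 and 1411. Genes with no RefSeq match by symbol, 751 in all, had 202 higher under BPQD and 45 higher under TiO2. Of 89 snoRNAs, 4 (4.49%) were higher under BPQD and 3 higher under TiO2, and of 644 pseudogenes 105 (16.3%) and 44, below the background share in each direction.

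LINC00641, an intergenic noncoding RNA, was at 5.84, 6.20 and 5.91 FPKM under BPQD, 1.54, 1.46 and 1.22 under TiO2 and 1.89, 1.85 and 1.98 in controls (1.54 ± 0.055, adjusted p = 2.46e-06). LINC02595 was at 5.04, 5.15 and 4.88 FPKM under BPQD and 0.616, 0.907 and 0.518 under TiO2 (1.85 ± 0.092, adjusted p = 9.44e-06). In both the TiO2 values lay at or below control and the BPQD values well above it. NEAT1, the scaffold of nuclear paraspeckles, was at 9.002, 13.3 and 14.4 FPKM under BPQD, 3.01, 2.52 and 6.92 under TiO2 and 3.12, 4.25 and 3.43 in controls (1.43 ± 0.31, adjusted p = 0.00830). TiO2 replicate 3 was the highest of its group without reaching the BPQD values. CASC19 was at 14.2, 14.2 and 12.7 FPKM under BPQD and 3.83, 5.47 and 2.00 under TiO2 (1.69 ± 0.25). SCARNA12, a guide RNA of Cajal bodies that lies within PHB2 on the same strand, was at 14.2, 14.9 and 22.1 FPKM under BPQD and 3.53, 2.92 and 3.43 under TiO2 (2.05 ± 0.46), but 1 control library reached 14.1 FPKM, and reads of the host gene cannot be separated from it. The pseudogenes USP32P3 (1.38) and RPS24P17 (1.34, within SLC12A3) share sequence with their parents and are uncertain, as is the read-through transcript SENP3-EIF4A1 (1.34), whose BPQD values ran from 18.3 to 69.3 FPKM and whose call was lost in 11 of 18 alternatives. UPK3BL1 (2.02) had 2 TiO2 libraries under 1 FPKM and the other at 5.38. Its call was lost when any BPQD library, or TiO2 replicate 1 or 2, was left out.

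Among protein-coding genes, HOXC8, a homeobox factor of body patterning, was at 7.27, 7.46 and 7.57 FPKM under BPQD, 1.49, 1.31 and 1.38 under TiO2 and 2.72, 2.34 and 2.302 in controls (1.82 ± 0.055, adjusted p = 1.78e-06). It shares an overlapping locus and strand with HOXC6. The 3 groups did not overlap, with BPQD above and TiO2 below control. ID3, an inhibitor of helix-loop-helix factors, was at 119, 119.9 and 119 FPKM under BPQD, 90.7, 88.8 and 89.6 under TiO2 and 169, 167 and 169 in controls (0.41 ± 0.016, adjusted p = 2.90e-06), so here both exposures were below control and TiO2 further.

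**Figure D4:**
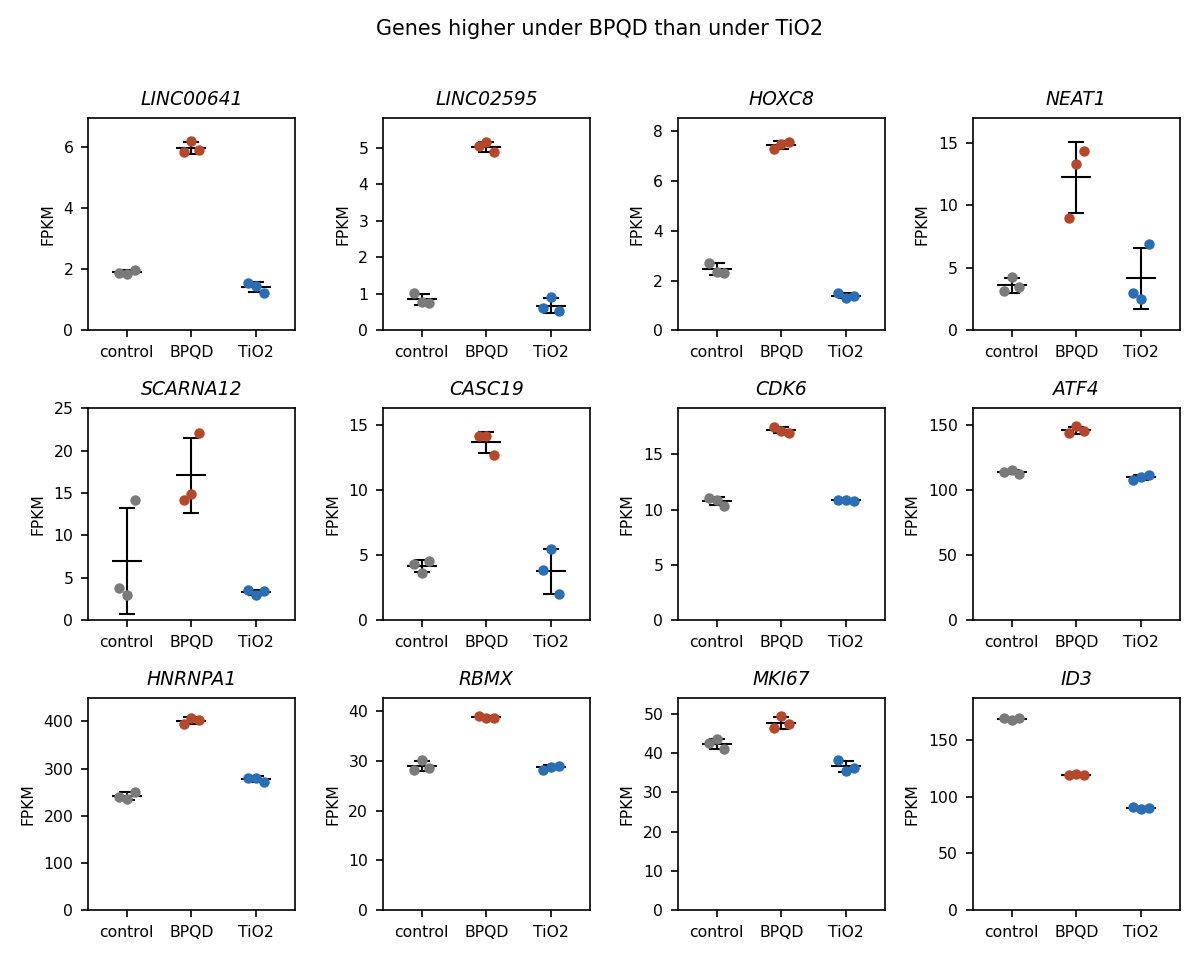
FPKM per library (points, 3 per group) with mean and SD (bars) for 12 genes called higher under BPQD than under TiO2. LINC00641, LINC02595, HOXC8 and CDK6 show narrow BPQD values above both other groups, NEAT1 and SCARNA12 are more spread, and ID3 is below control under both materials.

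In the cell cycle and repair lists more members were called higher under BPQD than higher under TiO2. In the replication list 16 of 41 were higher under BPQD and 3 higher under TiO2, with a median of 0.04. CDK6, a kinase of G1 progression, was at 17.4, 17.1 and 16.9 FPKM under BPQD, 10.9, 10.9 and 10.8 under TiO2 and 11.1, 10.8 and 10.4 in controls (0.62 ± 0.029, adjusted p = 6.29e-06). The activator E2F2 (0.46) and the licensing factor CDT1 (0.42) were higher under BPQD, where both lay near control, and the cyclin CCNE1 was higher under TiO2 (3.86, 3.85 and 4.41 FPKM under BPQD, 6.09, 8.01 and 5.74 under TiO2, -0.58 ± 0.12). In the mitotic list 16 of 40 were higher under BPQD and 2 higher under TiO2, with a median of 0.08. The proliferation antigen MKI67 was at 46.3, 49.4 and 47.5 FPKM under BPQD, 38.2, 35.4 and 36.3 under TiO2 and 42.5, 43.6 and 41.0 in controls (0.38 ± 0.038, adjusted p = 0.000248). The spindle genes ASPM (0.35), CENPE (0.29) and HMMR (0.28) differed by less than a log2 unit but without overlap. DNA repair genes had 15 of 38 higher under BPQD and 3 higher under TiO2, with a median of 0.13. The helicase WRN was at 6.08, 6.03 and 6.397 FPKM under BPQD and 4.27, 4.71 and 4.59 under TiO2 (0.38 ± 0.041), the end-joining kinase PRKDC at 42.3, 43.5 and 42.2 and 32.3, 32.9 and 33.1 (0.37 ± 0.025), the Fanconi anaemia protein FANCD2 differed by 0.35 and the break-protection factor RIF1 by 0.32.

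Promoters of mitotic genes are known to share a cell cycle homology region, TTTGAA, through which they are repressed outside division. The letters occurred on either strand in 23 of 33 mitotic windows (69.7%), against 15.4% of all windows and 9.34% of those of tested genes, and in 1 of 34 replication windows. HMMR and MKI67 are printed because each holds 2 matches, in capitals, HMMR from chr5:163460382-163460681 on the plus strand and MKI67 from chr10:128126374-128126673 on the minus strand:
HMMR: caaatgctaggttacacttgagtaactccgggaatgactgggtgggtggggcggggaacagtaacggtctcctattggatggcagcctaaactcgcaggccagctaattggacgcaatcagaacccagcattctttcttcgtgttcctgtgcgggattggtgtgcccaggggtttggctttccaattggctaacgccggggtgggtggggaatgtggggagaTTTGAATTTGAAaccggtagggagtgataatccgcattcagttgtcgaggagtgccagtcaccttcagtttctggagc
MKI67: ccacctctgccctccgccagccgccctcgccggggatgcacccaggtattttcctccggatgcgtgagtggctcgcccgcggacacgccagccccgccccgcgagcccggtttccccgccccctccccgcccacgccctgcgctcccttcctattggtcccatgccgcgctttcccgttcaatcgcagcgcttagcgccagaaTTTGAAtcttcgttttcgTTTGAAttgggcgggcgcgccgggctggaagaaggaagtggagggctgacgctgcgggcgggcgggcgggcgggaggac
The earlier of the MKI67 matches overlaps a match to the heat shock element GAANNTTC.

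HNRNPA1, a splicing regulator, was at 394, 407 and 404 FPKM under BPQD, 281, 281 and 271 under TiO2 and 241, 235 and 250.4 in controls (0.53 ± 0.028, adjusted p = 1.20e-05). HNRNPA1, PABPC1, HSPA8 and FTH1 have processed copies in the genome that can share their reads. The poly(A)-binding PABPC1 was at 258, 276 and 245 FPKM under BPQD and 178, 205 and 202 under TiO2 (0.41 ± 0.062), and the poly(C)-binding PCBP1 at 182, 185 and 181 and 147, 143 and 145 (0.33 ± 0.021). Of 15 proteins that bind m6A directly or at sites it exposes, 10 were higher under BPQD and 1 higher under TiO2, with a median of 0.21. RBMX was at 39.0, 38.7 and 38.6 FPKM under BPQD, 28.3, 28.9 and 29.0 under TiO2 and 28.2, 30.2 and 28.6 in controls (0.42 ± 0.028, adjusted p = 3.30e-05), and the nuclear reader YTHDC1 at 13.8, 15.9 and 16.3 and 11.9, 12.2 and 11.97 FPKM (0.32 ± 0.078). Members of the IGF2BP family went opposite ways, IGF2BP1 higher under BPQD (0.34) and IGF2BP2 higher under TiO2 (7.92, 7.78 and 7.28 FPKM under BPQD, 11.2, 11.0 and 10.1 under TiO2, -0.44 ± 0.047). Of 12 m6A writer genes, methyltransferases and their partner subunits, 4 were higher under BPQD, among them METTL16 (0.37) and the subunit VIRMA (0.22). PCIF1 (-0.24) was the 1 higher under TiO2. The catalytic subunit METTL3 did not pass, at 7.91, 8.06 and 7.54 FPKM under BPQD and 8.09, 7.48 and 6.80 under TiO2 (0.066 ± 0.056, adjusted p = 0.396). Neither demethylase passed, ALKBH5 being at 28.5, 29.1 and 28.6 FPKM under BPQD and 28.7, 29.0 and 29.7 under TiO2 (-0.018 ± 0.029, adjusted p = 0.667).

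The ATF4 list held genes of both directions, 9 of 23 higher under BPQD and 6 higher under TiO2. The factor ATF4 itself was at 143, 149 and 145 FPKM under BPQD, 108, 109.7 and 112 under TiO2 and 114, 115 and 112 in controls (0.41 ± 0.022, adjusted p = 1.25e-05). Its target ASNS, asparagine synthetase, was at 4.24, 4.99 and 4.87 and 2.81, 2.47 and 3.41 FPKM (0.55 ± 0.10). The members higher under BPQD included PSPH, SLC7A1 and PSAT1, also of amino acid supply. Members higher under TiO2 included the transcription factor CEBPB, at 21.3, 21.5 and 23.2 FPKM under BPQD and 32.5, 33.4 and 32.1 under TiO2 (-0.55 ± 0.037), and the death-linked DDIT3 (CHOP), differing by -0.75 with a call that was lost in most leave-one-out fits.

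Of 45 nuclear genes of oxidative phosphorylation, 22 were higher under TiO2 and 2 higher under BPQD, with a median of -0.12, among them the complex III subunit UQCRC2 (27.4, 27.2 and 28.1 FPKM under BPQD, 35.3, 35.8 and 32.9 under TiO2, -0.32 ± 0.041), ATP5F1C (-0.30) and SDHB (-0.29). Of 13 mRNAs encoded by mitochondrial DNA, 6 were higher under BPQD and none higher under TiO2, with a median of 0.26. MT-CYB was at 19.1, 18.6 and 18.8 FPKM under BPQD, 14.2, 13.5 and 12.1 under TiO2 and 14.1, 14.1 and 15.1 in controls (0.48 ± 0.055, adjusted p = 0.000415), and MT-ND5 at 14.5, 15.4 and 15.6 and 11.9, 11.5 and 10.6 (0.39 ± 0.050). MT-ND4L (0.44) and MT-ATP8 (0.32) overlap a neighbouring gene on the same strand. The whole mitochondrial genome made up 0.280% to 0.290% of summed FPKM under BPQD and 0.237% to 0.258% under TiO2. Cytosolic ribosomal proteins gave 5 of 53 higher under BPQD and 6 higher under TiO2, and these counts were 14 and 2 with TPM and 13 and 2 with quantile normalization.

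Some short RNAs made by RNA polymerase III were far below control under both exposures. RN7SK, a nuclear RNA that restrains transcription elongation, was at 3.85, 3.35 and 4.05 FPKM under BPQD, 9.71, 3.74 and 7.51 under TiO2 and 38.4, 41.3 and 32.3 in controls. The difference between exposures did not pass (-0.67 ± 0.27, adjusted p = 0.0874), and without TiO2 replicate 2 it was -1.01 with an adjusted p of 0.00224. The RNase P RNA RPPH1 was at 0.557, 0.214 and 0.269 FPKM under BPQD, 0.915, 0.842 and 0.480 under TiO2 and 8.94, 8.74 and 8.66 in controls (-0.37 ± 0.12, adjusted p = 0.0431), with overlapping exposures and a call lost in many alternatives. RPPH1 was under 1 FPKM in every exposed library and met the minimum mean only through its controls. RMRP did not pass (-0.21 ± 0.17, adjusted p = 0.372). The signal recognition particle RNAs RN7SL1 (0.24) and RN7SL2 (279, 291 and 285 FPKM under BPQD, 240.3, 241 and 237 under TiO2, 0.25 ± 0.028) were higher under BPQD, where they lay near control, although near-identical copies can share their reads.

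The untreated libraries place these differences. Against the same 3 controls, BPQD had 2524 genes higher (20.6%) and 2860 lower (23.4%), and TiO2 had 2111 higher (17.3%) and 2503 lower (20.5%). Both comparisons use these controls. Of the 2323 genes higher under BPQD than TiO2, the control mean lay between the exposures in 1224 (52.7%), above both in 467 and below both in 632. Of the 2273 genes higher under TiO2, it lay between them in 1037 (45.6%), above both in 822 and below both in 414. In the mevalonate arm, 5 of 9 genes were called lower than control under BPQD and none higher, against 1 lower and 7 higher under TiO2. From squalene to cholesterol, 4 of 11 were lower and 2 higher under BPQD, against none lower and 9 higher under TiO2. HMGCS1, near control under BPQD, stood at 0.036 for BPQD minus control and 1.33 for TiO2 minus control. HMOX1 stood at -0.56 and 0.16, and ANGPTL4 at -0.84 and 0.56, on opposite sides of control. ALPP (-0.93 and -0.42) and KRT18 (-0.51 and -0.28) were below control in both, and CDK6 (0.63 and 0.011) and LINC00641 (1.26 and -0.27) were above control under BPQD and near or below it under TiO2.

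**Figure D5:**
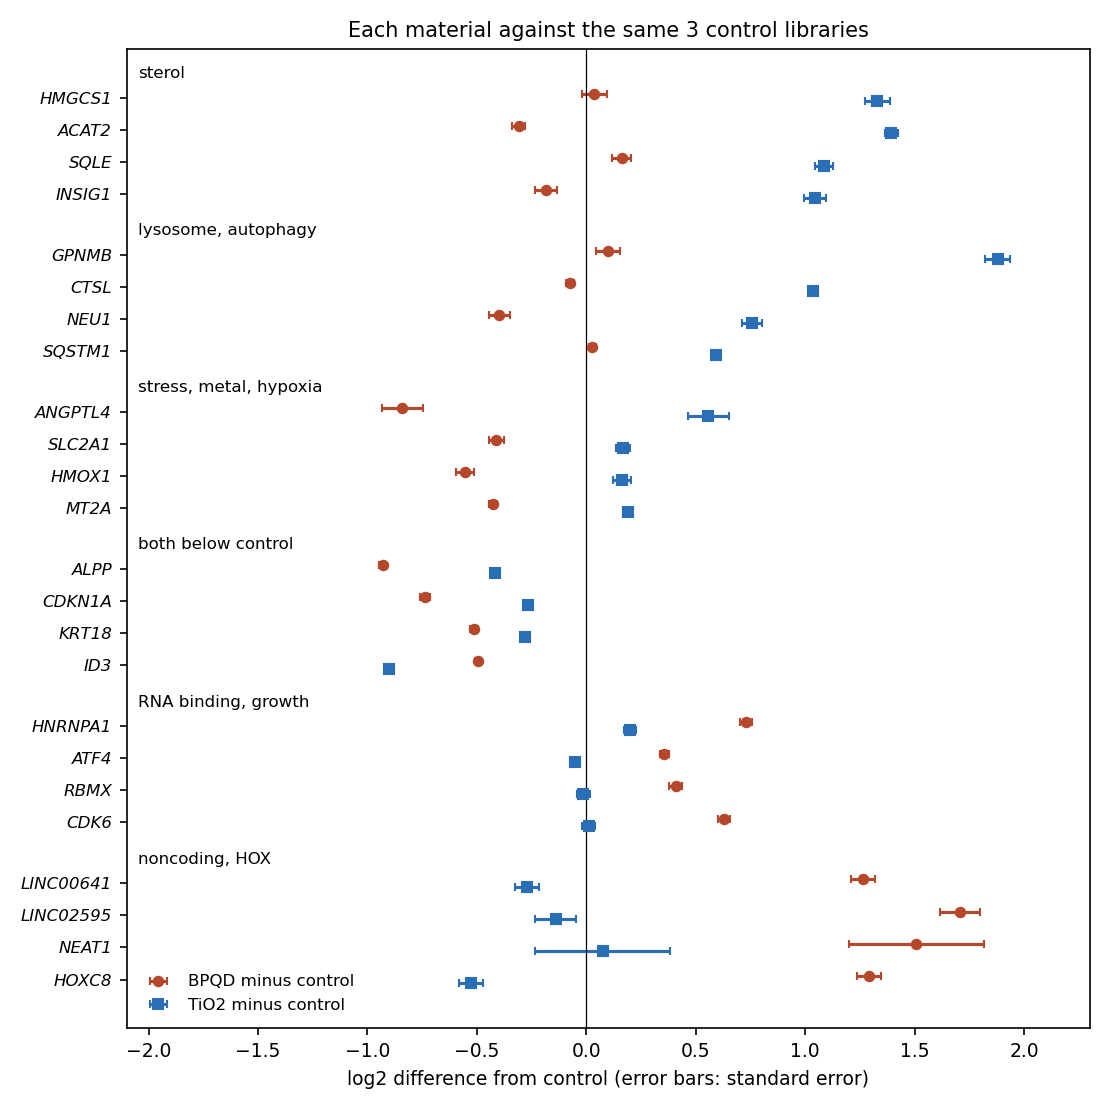
Log2 difference from control with standard error for BPQD (circles) and TiO2 (squares) in 24 named genes, both set against the same 3 control libraries. Sterol and lysosomal genes are displaced under TiO2 with BPQD near 0 or below, stress and hypoxia genes lie on opposite sides of 0, and noncoding RNAs are displaced under BPQD.

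The methyl mark was read by the authors against control and not between the materials. Of 172 named genes, 87 had a peak listed in the authors' deposited table for BPQD, 83 in that for TiO2, 62 in both and 64 in neither. The share of all tested genes with a listed peak was not counted, so these counts have no background beside them. A listed peak need not be a changed one: that of DDIT3 under TiO2 had an authors' deposited p of 0.418. ATF4 had the same interval, chr22:39522266-39522685 (GRCh38), in the authors' deposited table for each material, in its 3′ UTR, with a log2 change of m6A enrichment of -0.28 (p = 3.98e-34) under BPQD and -0.11 (p = 1e-06) under TiO2. CTSL had 2 peaks listed for each material. The one with the smallest p was the same interval in both, chr9:87731021-87731290, also in the 3′ UTR. It stood at -0.26 (p = 3.39e-09) and -0.15 (p = 1.41e-05) in the authors' deposited table for each. LINC00641, whose RNA was higher under BPQD, had 1 exonic peak, chr14:21200917-21201216, with a log2 change of 2.50 (p = 1.26e-14) in the authors' deposited table for BPQD. NEAT1 had 5 peaks listed under BPQD, the one with the smallest p at a log2 change of 0.17, and 3 under TiO2 with 0.04, in the authors' deposited table for each. METTL3 had a 5′ UTR peak at 0.64 (p = 0.000309) under BPQD and 0.62 (p = 0.000479) under TiO2 in the authors' deposited table for each, while its RNA did not differ past the threshold between the materials.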

How the data were processed

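Input RNA of A549 cells was compared between BPQD (10 mg/L, 24 h) and TiO2 (100 mg/L, 24 h), 3 libraries each, with 3 untreated libraries in the same fit. Groups came from sample titles. The authors deposited FPKM per gene, per the file headers, and the submitters' processing notes name HISAT2 and StringTie 1.3.0 and list the mouse build mm10. Gene IDs are human, and of 11473 tested genes matched in RefSeq GRCh38.p14, 11472 lay on the same chromosome and 87.2% started within 1000 bases, so coordinates are read as GRCh38. No counts are given, so depth is unknown and precision rests on 3 libraries a group. The authors' deposited m6A peak tables hold a log2 fold change and a p-value for each peak, with a log10 FDR that is treated as a score and not used. For a gene with more than 1 listed peak, the values given are those of the peak with the smallest p. Their 12 columns of FPKM per sample were not used, nor are the immunoprecipitated libraries analysed here.

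Values were tested as log2(FPKM + 1) with limma 3.58.1 in R 4.3.3, two-sided, with group means of all 9 input libraries, a variance trend, and Benjamini-Hochberg adjustment over 12224 genes at 0.05. On simulated data for this contrast, 94 of 100 genes changed by 1 and 73 of 100 changed by 0.5 (log2) were recovered, with 10 other calls among 12224 genes. The genes, lists and tests were chosen with earlier results of these data known. Named are the 10 genes furthest apart in each direction among those called, with a symbol, without overlap and with no library at 0, up to 4 called members a list, the 5 largest in each direction at a mean of at least 100 FPKM, and all reference genes. Clone-derived names, held by 288 called genes, were not taken as symbols. Not every gene meeting the rule is described, and some are not reported here. PMVK, CTSH, PSPH, SLC7A1, PSAT1, HSPA1B, CDH1, KRT19, NKX2-1, SFTPC and PTPRC were named after their values were seen. Gene IDs were matched by a table of names (36346 of 36576), and other steps used Python 3.11.15, pandas 2.3.3, numpy 2.4.6 and matplotlib 3.10.9.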

Additional observations from a re-analysis of the deposited data

How the results depend on the processing

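The count of called genes, 4596 as reported, was 2832 (1371 higher under BPQD, 1461 higher under TiO2) when the minimum mean was raised to 5 FPKM, which left 6504 genes to test. With no filter it was 5571, of which 61.5% were higher under BPQD against 50.5% as reported. That share was 60.5% for TPM, 55.3% after median centring and 51.8% after quantile normalization; these scalings moved the median of all genes to 0.041, 0.019 and 0.002. A pseudocount of 0.1 gave 4588 calls, no variance trend 4600 and the 6 compared libraries alone 4227. Leaving out 1 library at a time gave 3923 to 4456 calls, 1978 to 2252 higher under BPQD and 1940 to 2210 higher under TiO2. The labels do not say that a replicate number marks a shared culture or batch, so the numbers were not used as pairs. Over the tested genes, same-numbered BPQD and TiO2 libraries did not deviate together (r of -0.0062, 0.018 and -0.083). Single genes could still do so, as HSPA1A did, low in replicate 2 of both. With the replicate number as a block 4150 genes were called, 2100 and 2050 by direction. Of the 165 named genes that were called, 146 kept call and direction in all 18 alternatives and 19 lost the call in at least 1; none reversed. Counts of list members higher under TiO2 moved by over 1.5 times in the following alternatives: at a minimum mean of 5 FPKM, which left fewer members to test, hypoxia targets fell to 9, interferon-stimulated genes to 7, lysosomal membrane genes to 4, NF-kB and cytokine genes to 3 and mesenchymal markers to 2; with quantile normalization NRF2 and glutathione genes fell to 7; without TiO2 replicate 1 uptake genes fell to 6; and with no filter mesenchymal markers fell to 3. Of counts higher under BPQD, repair genes fell to 9 with no filter and m6A writer genes to 2 at 5 FPKM. In the same direction autophagy genes rose to 7 and nuclear oxidative phosphorylation genes to 4 with TPM. The p53 targets higher under BPQD fell to 1 with no filter, with the replicate block and without BPQD replicate 3 or TiO2 replicate 3. Ribosomal proteins are given with their list, and other such moves were in counts of 0 to 2 members as reported or of RNA polymerase III transcripts. Depth could not be used to weigh any value, since no counts are given.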

Other observations

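Of 12 tested mesenchymal genes, 5 were higher under TiO2 and 1 higher under BPQD (18.6% and 19.0% of all tested genes), led by FAP, a fibroblast protease, at 0.698, 0.688 and 0.894 FPKM under BPQD and 1.77, 1.94 and 1.99 under TiO2 (-0.72 ± 0.070, limma adjusted p = 0.000198). The mesenchymal count higher under TiO2 was 3 without BPQD replicate 1, BPQD replicate 3 or TiO2 replicate 2. Of 9 tested epithelial genes, 3 were higher under TiO2 and 1 higher under BPQD. KRT7 was at 214, 206 and 217 FPKM under BPQD, 252, 248 and 258 under TiO2 and 292, 288 and 311 in controls (-0.25 ± 0.035, limma adjusted p = 0.00105), so both exposures were below control. ABCA3, the lipid transporter of alveolar lamellar bodies, was higher under BPQD (9.41, 9.66 and 9.70 FPKM against 7.96, 7.75 and 7.81, 0.26 ± 0.028), and both were again below control at 11.3, 11.9 and 11.4.

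BCYRN1, a short brain-enriched RNA made by RNA polymerase III and expressed in many tumour lines, was at 85.5, 117 and 59.3 FPKM under BPQD, 44.4, 55.3 and 49.8 under TiO2 and 173, 149 and 146 in controls (0.75 ± 0.22, limma adjusted p = 0.0309), and its call was lost in several leave-one-out fits. YTHDF2, an m6A reader that leads mRNAs to decay, ran from 5.96 to 25.7 FPKM within the BPQD libraries and was not called. The mitochondrial mRNA MT-ND2 was listed at 0 in 1 control library and at 21.5 to 31.4 FPKM in the other 8 input libraries.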
